A study of Homo sapiens with 12 samples.

Results

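The 45 genes described here encode proteins of the G2 phase of the cell cycle and of mitosis. They are given as a list of gene symbols, all of which were found among the 56832 symbols in the count files, and every one of them passed the filter on low counts. They were sorted by role into 9 groups, from the kinases and cyclins of mitotic entry to the proteins of cytokinesis. The lowest count of any of them in any library was 20.

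RNA sequencing was done on SW1736 cells, an established human line derived from an anaplastic thyroid carcinoma, as 12 libraries of total RNA. Per the labels the cells stably carried either pCDH-TRB, a vector for thyroid hormone receptor beta, or the empty vector pCDH-EV, and are called TRB and EV cells below. All cells were first kept for 24 hours in medium with hormone-stripped serum, and then received 10 nM triiodothyronine (T3, the active thyroid hormone) or sodium hydroxide vehicle for 24 hours. Each pairing of vector and treatment had 3 libraries, which gave 4 groups. Which promoter drove the receptor, and whether each line was a single clone or a pool, is not given in the sources used here. Nothing in the labels says that the 3 libraries of a group came from separate cultures, so p-values measure only the spread between these libraries.

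Transcripts of G2 and mitotic genes rise late in the cell cycle and fall after division, so their level in a culture follows the share of cells in those phases as well as the transcript level per cell. In bulk RNA these cannot be told apart. Many such genes are silenced in resting cells by the DREAM complex and activated in G2 by B-MYB and FOXM1, which act with the MuvB core at a promoter element called the CHR (cell cycle genes homology region), often together with CCAAT boxes bound by NF-Y. Anaplastic thyroid cancers divide fast and have lost most features of the thyroid cell, and the liganded thyroid hormone receptor is a transcription factor that can raise or lower its target genes.

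In the fit of 11 libraries described below, 5 of the members shown here had a T3 effect that differed between TRB and EV cells. AURKB is shown as a member that rose in TRB cells, without a called difference from EV cells. The promoter sequences of these 6 members follow. Each is the 160 bases before the gene's start in RefSeq (build GRCh38.p14), written 5′ to 3′ on the strand of the gene, with capitals for the CHR letters TTTGAA or TTCGAA and for the CCAAT box (CCAAT, or ATTGG when on the other strand). They lie at chr20:3786791-3786950 on the plus strand for CDC25B, chr1:43358821-43358980 plus for CDC20, chr16:23678729-23678888 plus for PLK1, chr1:37692356-37692515 plus for CDCA8, chr5:138178952-138179111 plus for KIF20A and chr17:8210226-8210385 minus for AURKB.
CDC25B: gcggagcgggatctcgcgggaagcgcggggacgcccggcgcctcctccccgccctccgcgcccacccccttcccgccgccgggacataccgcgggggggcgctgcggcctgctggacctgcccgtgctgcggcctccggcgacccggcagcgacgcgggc
CDC20: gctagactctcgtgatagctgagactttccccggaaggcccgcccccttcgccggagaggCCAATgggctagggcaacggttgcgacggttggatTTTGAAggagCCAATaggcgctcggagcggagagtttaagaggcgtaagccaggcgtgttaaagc
PLK1: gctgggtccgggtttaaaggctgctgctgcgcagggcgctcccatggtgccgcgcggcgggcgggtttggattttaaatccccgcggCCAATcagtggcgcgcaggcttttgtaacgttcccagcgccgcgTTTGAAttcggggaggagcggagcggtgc
CDCA8: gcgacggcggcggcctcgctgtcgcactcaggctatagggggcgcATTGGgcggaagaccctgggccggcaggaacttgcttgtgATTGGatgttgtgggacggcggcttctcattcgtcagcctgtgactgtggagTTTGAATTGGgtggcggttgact
KIF20A: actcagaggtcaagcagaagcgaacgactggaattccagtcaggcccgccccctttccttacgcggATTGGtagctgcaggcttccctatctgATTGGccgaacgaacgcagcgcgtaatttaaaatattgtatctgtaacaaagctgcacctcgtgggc
AURKB: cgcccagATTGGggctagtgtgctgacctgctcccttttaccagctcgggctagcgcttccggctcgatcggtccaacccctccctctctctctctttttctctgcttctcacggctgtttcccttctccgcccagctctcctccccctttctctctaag
CDC20 has a CHR 65 bases before the start between CCAAT boxes at 100 and 55 bases, and PLK1 has a CHR at 29 bases with a CCAAT box at 73 bases. CDCA8 has a CHR at 23 bases and CCAAT boxes at 115, 75 and 18 bases, the last of which shares 1 letter with the CHR. KIF20A has CCAAT boxes at 94 and 67 bases, AURKB has 1 at 153 bases, and neither has the CHR letters in this stretch. CDC25B has none of these letters in it. In GENCODE 29 these 6 genes begin further upstream, so a stretch can lie within a transcript. The stretches of CDC25B, PLK1, KIF20A and AURKB lie wholly inside the annotated gene, and those of CDC20 and CDCA8 in part. What lies before the GENCODE starts of CDC25B, PLK1, KIF20A and AURKB is not shown.

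The RefSeq table held promoters (250 bases before to 50 after the start) for 37 of the 45 members, and not for FOXM1, AURKA, BUB3, TTK, BIRC5, TPX2, RACGAP1 and UBE2C. The CHR letters, in either form and on either strand, were in 27 of these 37 windows (73%), against 16.6% of all 27305 promoters in the table and 3 of 38 (7.89%) for a list of genes of the G1/S transition and DNA replication. CCAAT boxes were in 28 windows (75.7%), against 35.7% of all promoters and 57.9% of the G1/S list. Both kinds of letters were in 22 windows (59.5%), against 6.58% of all promoters. AGGTCA, the half-site that nuclear receptors such as the thyroid hormone receptor bind, was in 3 windows (8.11%), those of BUB1, AURKB and KIF20A, against 13.9% of all promoters. A match of letters is a description of the sequence and does not show that a factor binds there.

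Counts within genes totalled 3819306 to 13086717 per library. THRB, the gene of the supplied receptor, stood at 12.3 to 18.3 CPM (a gene's counts out of a fixed total, equal for all libraries, with library sizes adjusted by the trimmed mean of M-values, TMM) across the 6 EV libraries and at 79.8 to 322 in the 6 TRB libraries, so the vector labels matched the data. Epithelial keratins were high, with KRT8 between 386 and 2208 CPM. Of the 7 thyroid markers, TSHR and FOXE1 were at 0 in every library, TG and SLC5A5 stayed below 1 CPM, and PAX8 ranged from 0.72 to 6.98 CPM, so the markers that define a differentiated thyroid cell were absent or low. Of 6 immune markers, CD3E was at 0 in every library, PTPRC, CD79A and CD68 did not exceed 1.01 CPM, LYZ stood at 778 to 1589 CPM and CD14 at 9.23, 0.18 and 9.74 CPM in TRB cells with T3. No CPM of an endothelial marker exceeded 0.253. Of 8 fibroblast or mesenchymal markers, COL1A2 and COL3A1 were at 0 in every library, PDGFRB, DCN, LUM and THY1 were at or near 0, VIM did not exceed 1.51 CPM, and COL1A1 made up most of the list's sum.

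Some of these markers moved with T3 in TRB cells. In the fit without replicate 2 of TRB cells with T3, COL1A1 (-0.86 ± 0.21 (SE, adjusted p = 0.00705)) and VIM (-3.17 ± 0.91 (SE, adjusted p = 0.0173)) fell, the only ones of the 8 fibroblast or mesenchymal markers with enough counts to test, and the sum of the list was 26.94 to 28.56 CPM with vehicle and 13.74, 2.518 and 15.11 CPM with T3. Of 6 epithelial markers CDH1 (0.81 ± 0.095 (SE, adjusted p = 2.95e-05)) and KRT7 (1.27 ± 0.21 (SE, adjusted p = 0.000496)) rose in that fit, and the sum was 3812 to 3888 CPM with vehicle and 3625, 2030 and 3893 CPM with T3. Of the immune markers CD14 rose (4.60 ± 0.33 (SE, adjusted p = 4.52e-07)), 1 of 2 tested, and the sum was 804 to 982.6 CPM with vehicle and 787.7, 1589 and 790.7 CPM with T3. With 12 libraries CDH1 and CD14 were called among the markers of these lists, both higher. Of the 7 thyroid markers 3 had enough counts to test, and 1 was called lower in each fit. The sum of the thyroid list was 8.141 to 10.94 CPM with vehicle and 5.254, 1.079 and 5.122 CPM with T3. The part of these markers in the results was not tested.

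Replicate 2 of TRB cells with T3 stood apart from the other 11 libraries, and the counts of calls and each member's T3 effect in TRB cells are therefore given with it and without it. Set against the mean of replicates 1 and 3, its log2 CPM declined with the GC content of the transcript, with a Spearman correlation of -0.885 over 12471 genes and of -0.915 over the 45 members. It was above both other replicates for 30 members and below both for 13. It exceeded their mean more than 2-fold for 23 members and fell short of it more than 2-fold for 7. CENPE, a kinetochore motor with a GC content of 35.3%, was highest against the other replicates (log2 ratio 2.81), and AURKB, with a GC content of 55.6%, was lowest (-2.80). The members are AT-rich as a group, with a median GC content of 43.2% against 48.4% of the genes tested. Unique alignment also differed: 19.03% of what was counted in this library was not unique, against 33.08% to 91.95% in the other 11. The part of these library features in the results was not tested.

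**Figure D1:**
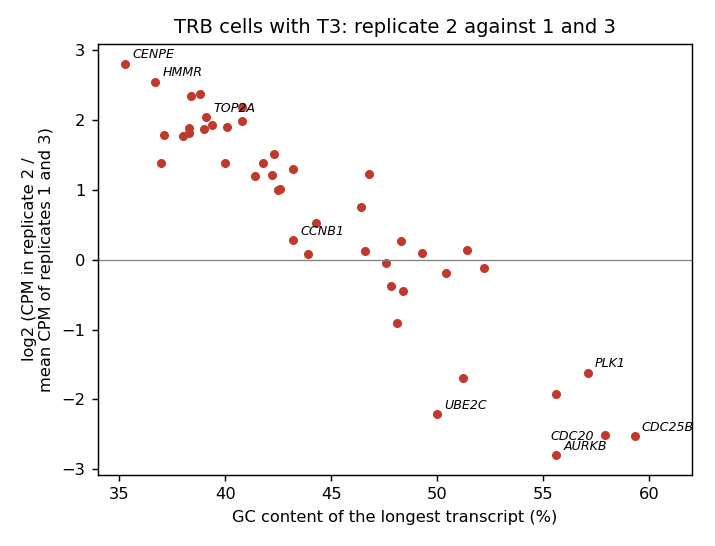
Ratio of replicate 2 to the mean of replicates 1 and 3 in TRB cells with T3 (log2, vertical axis) against the GC content of each member's longest transcript (percent, horizontal axis), 1 point for each of the 45 members. AT-rich members such as CENPE (2.81) lie far above 0 and GC-rich members such as AURKB (-2.80) far below it.

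Summed over the 45 members, the level in EV cells was 6326, 6842 and 6470 CPM with vehicle and 5736, 6806 and 5226 CPM with T3. In TRB cells the sums were 6268, 6415 and 6319 CPM with vehicle and 5024, 11240 and 4496 CPM with T3. Replicates 1 and 3 of TRB cells with T3 thus had the lowest sums of all 12 libraries, and replicate 2 the highest. The median member, set against its mean in EV cells with vehicle on the log2 scale, lay at -0.40, 0.57 and -0.55 in TRB cells with T3, at -0.013, -0.0059 and -0.030 in TRB cells with vehicle, and at -0.18, 0.012 and -0.32 in EV cells with T3. The spread between replicates was small in vehicle, with a median coefficient of variation over the members of 7.4% in EV cells and 5.49% in TRB cells. It was 17.4% in EV cells with T3 and 57.1% in TRB cells with T3, or 6.98% without replicate 2. In EV cells with T3 replicate 3 stood lowest, and 16 members had their lowest value of all libraries there.

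**Figure D2:**
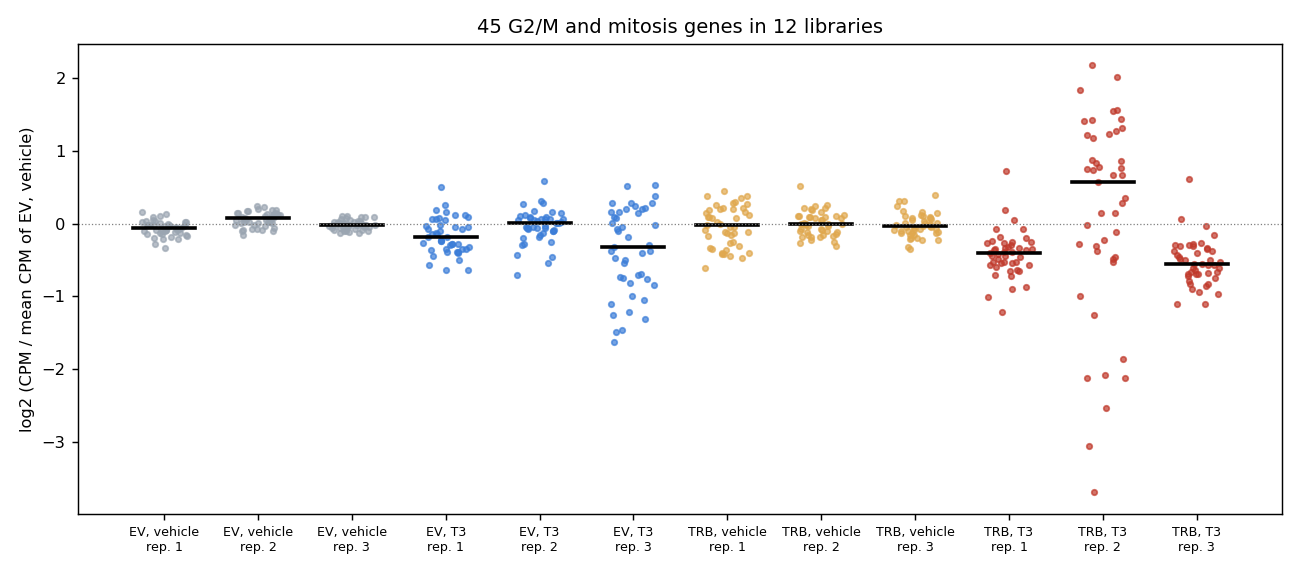
Level of each of the 45 members in each of the 12 libraries, as log2 of its CPM over its mean CPM in EV cells with vehicle (vertical axis), with a black bar at the median member. The medians of TRB cells with T3 lie at -0.40 and -0.55 in replicates 1 and 3 and at 0.57 in replicate 2, where single members spread most widely.

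Levels per length, in CPM per kilobase of exon in EV cells with vehicle, ran from 1.56 for PRC1 to 104 for TOP2A. TOP2A, the topoisomerase that untangles chromosomes, was followed by TPX2 (84.8), ECT2 (80.7) and UBE2C (72.9). PRC1 overlaps the same-strand gene AC068831.7 and the antisense gene PRC1-AS1 in GENCODE 29, so reads may have been set aside as ambiguous or shared, and its level is uncertain. BUB1B, which overlaps the readthrough gene BUB1B-PAK6, and CENPA, which overlaps SLC35F6, are uncertain in the same way. The strand setting of the counting is not given in the sources used here, so members that overlap genes on the other strand, such as KIF20A (with BRD8 and CDC23), PLK1 (with ERN2), FOXM1 (with RHNO1 and ITFG2) and CDCA3 (with GNB3), may carry some of their reads.

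The response of TRB cells to T3 addressed the effect of the hormone where the receptor was supplied. With all 12 libraries, 4 of the 45 members fell and 0 rose in edgeR at an adjusted p below 0.05, beside 14.7% of all genes tested called in either direction, 6.2% lower and 8.54% higher. The 4 were CDC25B, CDCA8, BIRC5 and KIF20A. The median log2 fold change of the members was 0.083, and 21 of 45 were below 0. Without replicate 2 of TRB cells with T3, 22 members fell and 1, AURKB, rose, beside 33.3% of all genes called in either direction, 15.2% lower and 18.1% higher. The members' median was then -0.41, against -0.011 for all genes tested, with 42 of 45 below 0. All 4 genes called with 12 libraries were also called with 11.

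Without replicate 2, all libraries of TRB cells with T3 lay below all libraries of TRB cells with vehicle for 40 members and above them for 1, beside 36% and 30.3% of all genes tested. With replicate 2 this held for 17 members, all lower, beside 23.5% of all genes. When each library's smooth trend against GC content was taken out with offsets and all 12 libraries were kept, 22 members fell and 0 rose, beside 42.5% of genes called and 22.2% called lower, with a median of -0.34. With the offsets and 11 libraries, 40 members fell and 1 rose, beside 55.9% called and 31.6% called lower, with a median of -0.45. AURKB was the 1 that rose, and MKI67, NUSAP1, HMMR and ASPM were the 4 not called. Without replicate 1, 2 or 3 of TRB cells with vehicle, 0, 1 and 1 members were called, beside 8.61%, 8.76% and 8.48% of all genes. With all 12 libraries the share of all genes called was 14.7%, so calls fell among genes in general as well.

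**Figure D3:**
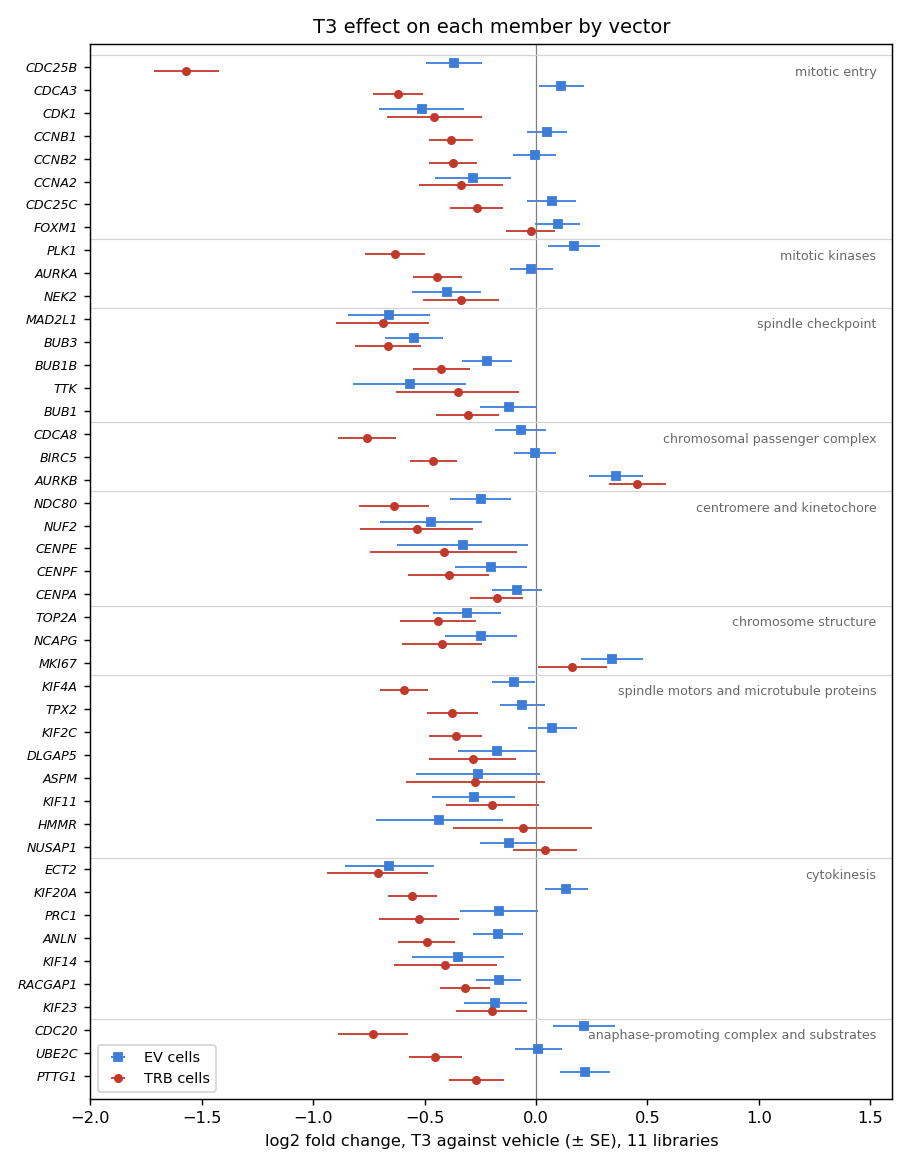
Log2 fold change of T3 against vehicle for each member (horizontal axis, bars are standard errors), in EV cells (blue squares) and TRB cells (red circles), fitted without replicate 2 of TRB cells with T3 and grouped by role. In TRB cells 42 of 45 points lie below 0, with CDC25B the lowest at -1.57 and AURKB the highest at 0.46.

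Mitotic entry was represented by 8 members, of which 4 (CDC25B, CDCA3, CCNB1 and CCNB2) fell in TRB cells without replicate 2 and 1 (CDC25B) fell with all 12 libraries. CDC25B, the phosphatase that starts the activation of CDK1 in late G2, gave the largest response of all members. CDC25B stood at 177, 160 and 179 CPM in EV cells with vehicle and at 136, 106 and 160.2 CPM in EV cells with T3. In TRB cells it stood at 234, 248 and 227 CPM with vehicle and at 74.2, 13.3 and 79.9 CPM with T3. Values are in the order of replicates 1, 2 and 3, here and below. Every library of TRB cells with T3 lay below every other library, and the 3 libraries of TRB cells with vehicle lay above all others. Its log2 fold change was -2.08 ± 0.49 (SE, adjusted p = 0.0167) with 12 libraries and -1.57 ± 0.15 (SE, adjusted p = 4.28e-06) without replicate 2. With GC offsets and 11 libraries it was -1.70, so the fall was as large there. CDC25B lies at chr20:3786772-3806121 (GENCODE 29, GRCh38) and overlaps no other annotated gene.

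CCNB1, the cyclin that activates CDK1 at the onset of mitosis, changed less. In EV cells CCNB1 measured 125, 141 and 149.5 CPM with vehicle and 151, 135 and 146 CPM with T3. Its values in TRB cells were 159, 148 and 148 CPM with vehicle and 113, 137 and 112 CPM with T3. Replicates 1 and 3 of TRB cells with T3 lay below the other 9 libraries outside that group, while replicate 2 lay among them. The log2 fold change was -0.33 ± 0.14 (SE, adjusted p = 0.156) with 12 libraries, which did not pass, and -0.38 ± 0.10 (SE, adjusted p = 0.0107) without replicate 2. CDK1, the kinase itself, showed the spread of an AT-rich member (GC content 37.0%). Libraries of EV cells held 98.6, 143 and 132 CPM of CDK1 with vehicle and 94.9, 104 and 60.2 CPM with T3. Those of TRB cells held 98.5, 124 and 120.4 CPM and 82.6, 209.9 and 78.6 CPM. Replicate 2 was the highest of all libraries, and EV cells with T3 replicate 3 the lowest. Neither fit called CDK1, with log2 fold changes of 0.11 ± 0.37 (SE, adjusted p = 0.852) and -0.46 ± 0.21 (SE, adjusted p = 0.123).

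FOXM1, the transcription factor that activates many of these genes in G2, was not called in either fit. With vehicle, FOXM1 reached 141, 124 and 129.7 CPM in EV cells and 151, 143 and 139 CPM in TRB cells. With T3, it reached 137, 126 and 160 CPM in EV cells and 136, 36.2 and 138 CPM in TRB cells. All 3 libraries of TRB cells with T3 lay below the 3 of TRB cells with vehicle, replicates 1 and 3 by a small margin and within the range of EV cells with vehicle, and replicate 2 far below all others. Fitted as a log2 fold change, the T3 effect was -0.48 ± 0.38 (SE, adjusted p = 0.407) with 12 libraries and -0.024 ± 0.11 (SE, adjusted p = 0.893) without replicate 2. With GC offsets over 11 libraries it was -0.15 (adjusted p = 0.0498 in edgeR), where it was called lower. CDCA3, a protein that helps to trigger mitotic entry and was picked for naming after its values were seen, had a log2 fold change of -1.04 ± 0.34 (SE, adjusted p = 0.0701) with 12 libraries and -0.62 ± 0.11 (SE, adjusted p = 0.000895) without replicate 2. CCNB2, a second B-type cyclin, had -0.23 ± 0.17 (SE, adjusted p = 0.382) and -0.37 ± 0.11 (SE, adjusted p = 0.0165) in the same order of fits. CCNA2, the A-type cyclin, had 0.14 and -0.34 and CDC25C, another CDK1-activating phosphatase, -0.33 and -0.27, and neither was called. Log2 fold changes given in pairs below are in this order, with 12 libraries first and without replicate 2 second.

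**Figure D4:**
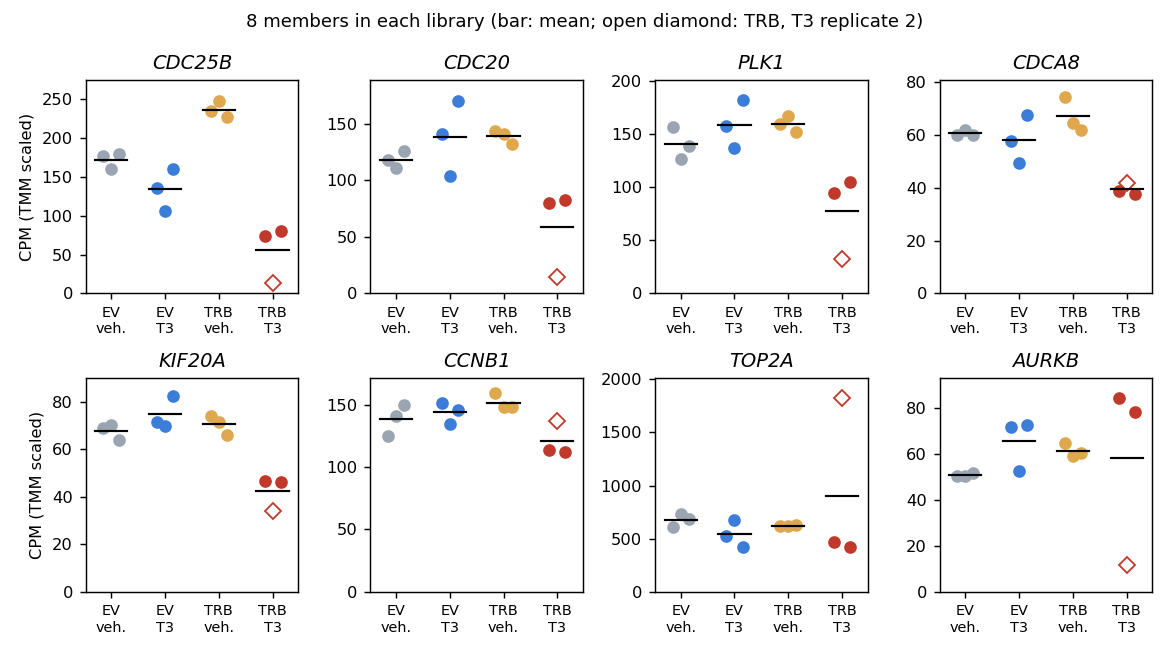
CPM of 8 members in each library (vertical axes start at 0), with a bar at the mean of each group and an open diamond for replicate 2 of TRB cells with T3. CDC25B, CDC20, PLK1, CDCA8 and KIF20A lie lower in all 3 libraries of TRB cells with T3 than in TRB cells with vehicle, while TOP2A and AURKB have replicate 2 on the opposite side of replicates 1 and 3.

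Of the 3 mitotic kinases, PLK1 and AURKA fell without replicate 2 and none was called with 12 libraries. PLK1 drives centrosome maturation, spindle assembly and exit from mitosis. PLK1 was read at 157, 126 and 139 CPM in EV cells given vehicle, and at 157, 137 and 182 CPM in those given T3. For TRB cells the readings were 159, 167 and 152 CPM and 94.5, 32.4 and 104 CPM. All 3 libraries of TRB cells with T3 lay below the other 9. The log2 fold change was -1.04 ± 0.34 (SE, adjusted p = 0.0671) with 12 libraries and -0.63 ± 0.13 (SE, adjusted p = 0.00266) without replicate 2. AURKA, the kinase of centrosomes and spindle poles, had replicates closer together. AURKA stood at 103, 110.2 and 115 CPM in EV cells with vehicle and at 104, 110.5 and 108 CPM in EV cells with T3. In TRB cells it stood at 117, 118 and 114 CPM with vehicle and at 91.3, 89.8 and 73.6 CPM with T3. The groups of TRB cells did not overlap, with or without replicate 2. Fitted as a log2 fold change, the T3 effect was -0.45 ± 0.14 (SE, adjusted p = 0.0552) with 12 libraries, which just missed the threshold, and -0.44 ± 0.11 (SE, adjusted p = 0.00796) without replicate 2. NEK2, a kinase that separates centrosomes, was not called (0.23 and -0.34).

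The spindle checkpoint holds back anaphase until every chromosome is attached. Of its 5 members, BUB3, MAD2L1 and BUB1B fell without replicate 2 and none was called with 12 libraries. In EV cells MAD2L1 measured 72.1, 103 and 86.7 CPM with vehicle and 59, 64.9 and 40.5 CPM with T3. Its values in TRB cells were 57.5, 76.9 and 76 CPM with vehicle and 43.7, 160.3 and 40.6 CPM with T3. Replicate 2 of TRB cells with T3 was the highest of all libraries, and replicates 1 and 3 were among the lowest 3, with EV cells with T3 replicate 3. The sign of the log2 fold change of MAD2L1, the protein that inhibits the anaphase-promoting complex, depended on that library: 0.21 ± 0.46 (SE, adjusted p = 0.771) with it and -0.69 ± 0.21 (SE, adjusted p = 0.022) without it. Libraries of EV cells held 186, 238 and 220.5 CPM of BUB3 with vehicle and 164, 157 and 119.5 CPM with T3. Those of TRB cells held 180.1, 204 and 199.9 CPM and 117, 274 and 121 CPM. For BUB3, a kinetochore adaptor of the checkpoint kinases, replicates 1 and 3 again lay far below TRB cells with vehicle and replicate 2 far above. Its values were -0.19 ± 0.30 (SE, adjusted p = 0.68) and -0.66 ± 0.15 (SE, adjusted p = 0.0038). BUB1, a checkpoint kinase, was not called in either fit. With vehicle, BUB1 reached 109, 124 and 114 CPM in EV cells and 103, 116 and 114 CPM in TRB cells. With T3, it reached 106, 123 and 87.8 CPM in EV cells and 91.3, 172 and 81.6 CPM in TRB cells. Replicates 1 and 3 of TRB cells with T3 lay below TRB cells with vehicle and replicate 2 above them, and the log2 fold change was 0.054 ± 0.26 (SE, adjusted p = 0.901) with 12 libraries and -0.31 ± 0.14 (SE, adjusted p = 0.121) without replicate 2. BUB1B, the other BUB1-like checkpoint protein, fell without replicate 2 (0.10 and -0.43), and TTK, the kinase that starts the checkpoint, was not called (0.73 and -0.35).

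The chromosomal passenger complex corrects attachments at the centromere and later acts in cytokinesis. Its 3 members moved in different directions: CDCA8 and BIRC5 fell in both fits, and AURKB rose without replicate 2. CDCA8 was read at 59.7, 61.8 and 60 CPM in EV cells given vehicle, and at 57.6, 49.3 and 67.3 CPM in those given T3. For TRB cells the readings were 74.4, 64.5 and 61.9 CPM and 38.7, 41.9 and 37.6 CPM. CDCA8 (borealin) was lower in all 3 libraries of TRB cells with T3 than in any other library, and replicate 2 lay close to the others. Its log2 fold change was -0.76 ± 0.16 (SE, adjusted p = 0.0099) with 12 libraries and -0.76 ± 0.13 (SE, adjusted p = 0.000656) without replicate 2. BIRC5 (survivin), picked for naming after its values were seen, keeps dividing cells alive and belongs to the same complex. BIRC5 stood at 113, 110.2 and 113 CPM in EV cells with vehicle and at 118, 98.6 and 119.7 CPM in EV cells with T3. In TRB cells it stood at 135, 121 and 124 CPM with vehicle and at 88.6, 81.8 and 89.3 CPM with T3. All 3 libraries of TRB cells with T3 lay below the other 9, and the log2 fold change was -0.55 ± 0.14 (SE, adjusted p = 0.0233) with 12 libraries and -0.46 ± 0.10 (SE, adjusted p = 0.00449) without replicate 2.

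AURKB, the kinase of this complex, was the only member called higher in either fit. In EV cells AURKB measured 50.6, 50.5 and 51.9 CPM with vehicle and 72.1, 52.6 and 72.9 CPM with T3. Its values in TRB cells were 65, 59.1 and 60.4 CPM with vehicle and 84.3, 11.7 and 78.5 CPM with T3. Replicates 1 and 3 of TRB cells with T3 were the highest of all libraries and replicate 2 the lowest. The log2 fold change was -0.075 ± 0.51 (SE, adjusted p = 0.932) with 12 libraries and 0.46 ± 0.13 (SE, adjusted p = 0.0158) without replicate 2. With GC offsets it was 0.33 over 11 libraries, so the call remained, and 0.094 over 12 libraries, where it was not called. For T3 in EV cells AURKB had 0.36 in the fit of 11 libraries, not called and the highest of the 45 members. Its difference between TRB and EV cells was 0.094 in that fit and was not called.

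Of 5 members at the centromere and kinetochore, NDC80 fell without replicate 2 (0.24 and -0.64 in the 2 fits) and none was called with 12 libraries. NDC80 is a subunit of the complex that binds microtubules at the kinetochore, as is NUF2, which was not called (0.66 and -0.54). CENPA, the histone H3 variant of centromeres, was low in all libraries. Libraries of EV cells held 24.5, 22.8 and 23.8 CPM of CENPA with vehicle and 21, 22.7 and 23 CPM with T3. Those of TRB cells held 25, 27.3 and 24.8 CPM and 20.9, 16.9 and 23.2 CPM. In TRB cells the T3 libraries lay below the vehicle libraries, in EV cells they overlapped, and the log2 fold change was -0.34 ± 0.17 (SE, adjusted p = 0.197) with 12 libraries and -0.18 ± 0.12 (SE, adjusted p = 0.291) without replicate 2. CENPE, a large kinetochore motor, had 1.12 and -0.41 and CENPF, another large kinetochore protein, 0.55 and -0.39, and neither was called. The sign of 4 of these 5 members, all but CENPA, turned with replicate 2.

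None of the 3 members of chromosome structure passed in either fit. With vehicle, TOP2A reached 607, 732 and 680.1 CPM in EV cells and 615, 619 and 629 CPM in TRB cells. With T3, it reached 527, 677 and 418 CPM in EV cells and 469, 1827 and 418 CPM in TRB cells. Replicate 2 of TRB cells with T3 lay far above every other library, while replicates 1 and 3 lay below TRB cells with vehicle. Fitted as a log2 fold change, the T3 effect was 0.54 ± 0.47 (SE, adjusted p = 0.444) with 12 libraries and -0.44 ± 0.17 (SE, adjusted p = 0.066) without replicate 2, and -0.49 with GC offsets over 11 libraries, where it was called. MKI67 was read at 728, 631 and 634 CPM in EV cells given vehicle, and at 705, 1001 and 812 CPM in those given T3. For TRB cells the readings were 661, 618 and 594 CPM and 755, 812 and 597 CPM. MKI67, the antigen used in pathology as a mark of dividing cells, overlapped between the groups of TRB cells. Its log2 fold change was 0.21 ± 0.18 (SE, adjusted p = 0.435) with 12 libraries and 0.16 ± 0.15 (SE, adjusted p = 0.462) without replicate 2. NCAPG, a subunit of condensin, had 0.44 and -0.42.

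Of 8 spindle motors and microtubule proteins, KIF4A, KIF2C and TPX2 fell without replicate 2 and none was called with 12 libraries. KIF4A, a motor of chromosome arms and the central spindle that was picked for naming after its values were seen, had -0.35 ± 0.21 (SE, adjusted p = 0.274) with 12 libraries and -0.59 ± 0.11 (SE, adjusted p = 0.000962) without replicate 2. KIF11 stood at 144, 187 and 162 CPM in EV cells with vehicle and at 135, 174 and 93.4 CPM in EV cells with T3. In TRB cells it stood at 133, 152 and 156 CPM with vehicle and at 131, 437 and 117 CPM with T3. KIF11, the motor that pushes the spindle poles apart, was not called in either fit, with 0.63 ± 0.44 (SE, adjusted p = 0.347) and -0.20 ± 0.21 (SE, adjusted p = 0.514). TPX2, which activates AURKA on the spindle, had 0.11 and -0.38, and KIF2C, a microtubule depolymerase, had -0.47 and -0.36. HMMR, ASPM, DLGAP5 and NUSAP1, proteins that bundle or organise spindle microtubules, were not called. HMMR had 1.28 and -0.06, DLGAP5 0.89 and -0.28, ASPM 0.54 and -0.27 and NUSAP1 0.41 and 0.041. Of the 8, 6 were above 0 with 12 libraries, and of these NUSAP1 alone was above 0 without replicate 2.

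Of the 7 members of cytokinesis, ECT2, KIF20A, PRC1, ANLN and RACGAP1 fell without replicate 2, and KIF20A fell with 12 libraries. In EV cells KIF20A measured 69.1, 70.5 and 63.9 CPM with vehicle and 71.6, 70 and 82.5 CPM with T3. Its values in TRB cells were 74, 71.4 and 66.2 CPM with vehicle and 46.5, 34.2 and 46.3 CPM with T3. KIF20A, the motor that carries proteins to the central spindle, was lower in all 3 libraries of TRB cells with T3 than in any other library. Its log2 fold change was -0.73 ± 0.17 (SE, adjusted p = 0.0138) with 12 libraries and -0.56 ± 0.11 (SE, adjusted p = 0.00178) without replicate 2. Libraries of EV cells held 7.82, 8.74 and 9.28 CPM of PRC1 with vehicle and 8.49, 5.92 and 9.62 CPM with T3. Those of TRB cells held 9.96, 9.82 and 10.7 CPM and 7.28, 3.60 and 6.25 CPM. PRC1, which bundles the central spindle, was read at a low level with few counts. Its log2 fold change was -0.81 ± 0.26 (SE, adjusted p = 0.0652) with 12 libraries and -0.53 ± 0.18 (SE, adjusted p = 0.0398) without replicate 2. ECT2, the exchange factor that places the cleavage furrow, had 0.093 and -0.71, ANLN, a scaffold of the contractile ring, 0.083 and -0.49, and RACGAP1, the partner of KIF23, -0.34 and -0.32. KIF14 and KIF23, motors of the midbody, were not called, with 0.46 and -0.41 for KIF14 and 0.45 and -0.20 for KIF23.

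The last group holds CDC20 and UBE2C, an activator of the anaphase-promoting complex and its ubiquitin-conjugating enzyme, and PTTG1 (securin), a substrate. CDC20 and UBE2C fell without replicate 2, and none of the 3 was called with 12 libraries. With vehicle, CDC20 reached 118, 111 and 126 CPM in EV cells and 143, 141 and 132 CPM in TRB cells. With T3, it reached 141, 103 and 170.3 CPM in EV cells and 79.7, 14.2 and 82.2 CPM in TRB cells. All 3 libraries of TRB cells with T3 lay below the other 9, and replicate 2 lay far below replicates 1 and 3. The log2 fold change was -1.24 ± 0.48 (SE, adjusted p = 0.116) with 12 libraries and -0.73 ± 0.16 (SE, adjusted p = 0.00334) without replicate 2. UBE2C was read at 99.7, 89.2 and 92.5 CPM in EV cells given vehicle, and at 91.1, 84 and 109 CPM in those given T3. For TRB cells the readings were 112, 105 and 101 CPM and 73.2, 16.2 and 76.7 CPM. UBE2C was likewise lowest in the 3 libraries of TRB cells with T3, with -0.93 ± 0.43 (SE, adjusted p = 0.169) and -0.45 ± 0.12 (SE, adjusted p = 0.0107). PTTG1 was not called (-0.29 and -0.27).

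T3 against vehicle in EV cells asked what the hormone does without the supplied receptor. With 12 libraries 0 members were called in edgeR, beside 0.229% of all genes tested. An unadjusted p below 0.05 was reached by 0 members, beside 881 of all 14431 genes tested. DESeq2 also called 0 with 12 libraries. The members' median log2 fold change was -0.17, with 33 of 45 below 0. The fit without replicate 2 of TRB cells with T3, which reaches this comparison through the shared dispersion, scaling and filter, called BUB3 and MAD2L1 lower and 0 higher, beside 7.33% of all genes called and 3.57% called lower. BUB3 had -0.55 ± 0.13 (SE, adjusted p = 0.0287) and MAD2L1 -0.66 ± 0.18 (SE, adjusted p = 0.0499) there. In BUB3 and in MAD2L1 all 3 libraries of EV cells with T3 lay below all 3 with vehicle. The size of the T3 effect in EV cells followed GC content over the 45 members (Spearman 0.782 in the fit of 11 libraries, a description across genes that share libraries), and EV cells with T3 replicate 3, the library with the fewest counts, had the highest correlation with GC content of all libraries over all genes (0.769). With GC offsets over 11 libraries the median was -0.006, and BUB3 (-0.31), MAD2L1 (-0.35), CDC25B (-0.60) and ECT2 (-0.28) were called lower, beside 17.4% of genes called.

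TRB against EV cells in vehicle asked what the supplied receptor does without hormone. 0 members were called in edgeR in either fit, beside 0.0208% of all genes with 12 libraries and 0.0742% with 11. With 12 libraries 0 members had an unadjusted p below 0.05, beside 213 of all 14431 genes tested. With 11 there were 4, beside 1837 of 14825. DESeq2 also called 0 in both. CDC25B had the highest log2 fold change, 0.46 ± 0.47 (SE, adjusted p = 1) with 12 libraries and 0.47 ± 0.12 (SE, adjusted p = 0.267) with 11, and its 3 libraries of TRB cells lay above all 3 of EV cells. The log2 fold changes followed GC content over the 45 members (Spearman 0.866 in both fits), and with GC offsets over 11 libraries the correlation was 0.124 and the median 0.099. When only these 6 libraries were fitted, 5 members were called, beside 11.2% of all genes.

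TRB against EV cells with T3 gave 1 member lower (KIF20A) and 0 higher with 12 libraries, beside 6.68% of all genes called and 2.55% called lower. Without replicate 2, 7 fell and 0 rose, beside 19.7% called and 7.9% called lower. KIF20A had -0.82 ± 0.17 (SE, adjusted p = 0.0167) with 12 libraries and -0.62 ± 0.11 (SE, adjusted p = 0.00171) with 11. The KIF20A call with 12 libraries was lost without EV cells with T3 replicate 1 or replicate 3. The other 6 with 11 libraries were CDC25B (-0.73), CDC20 (-0.70), PLK1 (-0.61), CDCA8 (-0.53), KIF4A (-0.44) and CDCA3 (-0.42). For all 7 of these members replicates 1 and 3 of TRB cells with T3 lay below all libraries of EV cells with T3. The same held for 19 of the 45 members, and 1 lay above. The share of all genes separated in this way is not given here, so these counts are a description only. This comparison shares its TRB libraries with the T3 comparison in TRB cells, so the calls are not independent of each other.

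The difference between the T3 effect in TRB cells and that in EV cells was tested as an interaction. With 12 libraries 0 members were called, beside 2.59% of all genes, and DESeq2 called 3, beside 7.08% of all genes. In edgeR 8 members had an unadjusted p below 0.05, beside 2879 of all 14431 genes tested. Without replicate 2, 9 members had a more negative T3 effect in TRB cells and 0 a more positive one, beside 15.2% of all genes called and 6.68% called in that direction. They were CDC25B, CDC20, PLK1, CDCA3, CDCA8, KIF20A, KIF4A, BIRC5 and CCNB1. CDC25B showed the largest difference, -1.20 ± 0.19 (SE, adjusted p = 0.0013), followed by CDC20 at -0.95 ± 0.21 (SE, adjusted p = 0.01) and PLK1 at -0.81 ± 0.18 (SE, adjusted p = 0.00927). For CDC20, T3 gave a log2 fold change of -0.73 in TRB cells and 0.22 in EV cells. For PLK1 the values were -0.63 and 0.17, and for KIF20A -0.56 and 0.14. BUB3 and MAD2L1, which fell in both kinds of cells without replicate 2, had differences of -0.12 ± 0.19 (SE, adjusted p = 0.718) and -0.029 ± 0.28 (SE, adjusted p = 0.954) and were not called. ECT2 had -0.71 in TRB cells and -0.66 in EV cells, with a difference of -0.053 ± 0.30 (SE, adjusted p = 0.921).

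The difference followed GC content over the members in the fit of 11 libraries (Spearman -0.684, n = 45 genes), more so with 12 libraries (-0.928), and less with GC offsets over 11 libraries (-0.162). With those offsets 34 members had a more negative T3 effect in TRB cells and 0 a more positive one, beside 34.1% of genes called and 18.5% called in that direction, with a median of -0.43. TOP2A and CDK1, not called without the offsets, were among them, at -0.52 and -0.38. The T3 effect in TRB cells without replicate 2 had a correlation of -0.10 with GC content over the 45 members, and of -0.854 with that library included.

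Other genes of these pathways, 118 that are not among the 45, were described from lists chosen with earlier results of these data known. In TRB cells with T3 and 12 libraries, CENPN rose and ANAPC7 fell, and the others were not called. The share called was 1.69%, beside 14.7% of all genes. CENPN, a kinetochore protein that reads CENPA nucleosomes, was higher in every library of TRB cells with T3. CENPN stood at 28.4, 36 and 40.5 CPM in EV cells with vehicle and at 38.6, 39.6 and 31.1 CPM in EV cells with T3. In TRB cells it stood at 37.2, 37.2 and 39 CPM with vehicle and at 78.2, 151 and 71.7 CPM with T3. Its log2 fold change was 1.40 ± 0.28 (SE, adjusted p = 0.00657) with 12 libraries and 1.04 ± 0.14 (SE, adjusted p = 0.000123) without replicate 2, and the difference from EV cells was 0.97 ± 0.20 (SE, adjusted p = 0.00626). ANAPC7, a subunit of the anaphase-promoting complex, had -0.68 ± 0.17 (SE, adjusted p = 0.0202) and -0.50 ± 0.12 (SE, adjusted p = 0.00503).

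Without replicate 2, 23 of the 118 fell and 3 (CENPN, KIF22 and MASTL) rose, so that 22% were called, beside 33.3% of all genes, with 15.2% lower and 18.1% higher. Their median was -0.093 against -0.41 for the 45 members, while with 12 libraries the medians were 0.101 and 0.083. Among spindle proteins 7 of 16 fell, led by CKAP2L (-0.31 and -0.96 in the 2 fits), and 1 rose. Among further genes of mitotic entry 6 of 14 fell, led by GAS2L3 (-0.40 and -0.91), and 1 rose. Of 12 genes that control condensin and cohesin 2 fell, with ESPL1, the protease separase, at -1.44 and -0.87. Of 18 MuvB, DREAM and E2F regulators 2 fell, E2F5 (-0.54 and -1.07) and NFYA. Of 7 genes of centriole duplication 0 were called, with 0 at an unadjusted p below 0.05, beside 6271 of all 14825 genes tested. Of 29 further kinetochore genes 3 fell and 1 rose, of 14 of the anaphase-promoting complex 2 fell, and of 8 of cytokinesis 1 fell. Some of these changes were shared with EV cells. For T3 in EV cells with 11 libraries, 4 of the 118 fell and 2 rose (5.08%), beside 7.33% of all genes. E2F5 (-0.762), NFYA, MIS18A (-0.669) and CDC23 fell there, and KIF22 (0.474) and MYBL2 rose. E2F5, NFYA, MIS18A and KIF22 were called in the same direction in TRB cells.

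The G1/S and DNA replication list of 44 genes was set beside the members as another part of the cell cycle. In TRB cells with T3 and 11 libraries 5 of them fell and 3 rose (18.2% called, beside 33.3% of all genes), with a median of -0.065, against 22 lower and 1 higher of the 45 G2 and mitosis genes, with a median of -0.41. In EV cells with T3 and 11 libraries 6 of the 44 rose and 0 fell (13.6% called, median 0.11), beside 7.33% of all genes called and 3.76% called higher, and 0 of the 45 members rose and 2 fell. With 12 libraries the G1/S list had 1 lower call, beside 6.2% of all genes, and a median of 0.040 in TRB cells. In EV cells it had 0 calls in edgeR, beside 0.229% of all genes, and a median of 0.106. There 2 of its genes had an unadjusted p below 0.05, beside 881 of all 14431 genes tested. TRB against EV cells with T3 gave closer values with 11 libraries. Of the 44, 8 fell and 0 rose (median -0.188). Of the 45, 7 fell and 0 rose (median -0.267), beside 7.9% of all genes called lower. For the difference of T3 effects, 3 of the 44 and 9 of the 45 were lower, beside 6.68% of all genes. The medians there were -0.13 and -0.177. With 12 libraries the medians were -0.234 and 0.133 for TRB with T3, and -0.116 and 0.185 for the difference. No test of the difference between the lists was made.

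Among the 37 members with a promoter in the table, the 27 with CHR letters had a median log2 fold change of -0.43 for T3 in TRB cells without replicate 2, with 12 called lower. The 10 without them had a median of -0.35, with 4 called lower and 1 higher. Of all genes 15.2% were called lower and 18.1% higher in that fit. With 12 libraries the medians were 0.21 and -0.31, with 1 and 2 called lower, beside 6.2% of all genes. CDC25B, which gave the largest fall, and KIF20A have no CHR letters in the window, and CDC20, PLK1 and CDCA8 do. The windows follow the RefSeq start. For KIF20A and PLK1 they lie wholly inside the gene as annotated in GENCODE 29, so upstream starts were not covered.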

How the data were processed

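Total RNA of SW1736 cells was sequenced in 12 libraries, 3 for each of 4 groups taken from the labels. For every library the authors deposited a file of raw counts, with 1 line for each gene symbol. The submitters' processing notes name CASAVA 1.7, STAR 2.7, HTSeq 0.10, DESeq2 and the build hg38; their settings, the annotation and the strand use are not given in the sources used here. The closing lines for reads of no gene were left out. Per library, of what was counted, 19.03% to 91.95% was not unique and 2.14% to 24.37% lay outside genes. A deposited table of normalized values was not used.

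The counts went into edgeR 4.0.16 (R 4.3.3): filterByExpr (minimum count 10, minimum total 15), TMM scaling, and a quasi-likelihood model with 4 group coefficients, tested two-sided in 5 comparisons with Benjamini-Hochberg adjustment over all genes at 0.05. Standard errors were derived from the log2 fold change and its F statistic. All 12 libraries (14431 genes tested) were fitted, and 11 without replicate 2 of TRB cells with T3 (14825 genes). CPM are counts relative to the TMM-adjusted library total. GC offsets took out a spline (5 degrees of freedom) of each library against the GC content of the longest GENCODE 29 transcript. Other alternatives were DESeq2 1.42.0 and its size factors, no filter, the compared groups alone, a replicate block, and leaving out each library. The procedure was tested on simulated counts that had no trend with GC content and no library standing apart, so the test does not cover these features.

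The 45 members, the lists and the alternatives were chosen with earlier results of these data known. Members named with values were 14 fixed ones and, per comparison and fit, the 3 most positive and 3 most negative among those called; BIRC5, CDCA3 and KIF4A were named after their values were seen. KNL1 of the pathway lists was matched to its older symbol CASC5. No 2 libraries held identical counts. Promoters came from RefSeq (GRCh38.p14).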

Additional observations from a re-analysis of the deposited data

Results flagged for a closer look

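The T3 effect differed between TRB and EV cells, in the edgeR interaction test without replicate 2 of TRB cells with T3, for 9 members, all with a more negative effect in TRB cells. The log2 differences were -1.20 for CDC25B, -0.95 for CDC20, -0.81 for PLK1, -0.73 for CDCA3, -0.69 for CDCA8, -0.69 for KIF20A, -0.49 for KIF4A, -0.46 for BIRC5 and -0.43 for CCNB1. With all 12 libraries none of them was called.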

How the results depend on the processing

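For T3 in TRB cells 4 members were called with 12 libraries, beside 14.7% of all genes. Members called, with the share of all genes called in parentheses, were 9 with DESeq2 (21.5%), 1 without a filter (5.97%), 22 with GC offsets (42.5%), 41 with GC offsets on 11 libraries (55.9%), 23 with DESeq2 on 11 (33.2%), 0 with the compared groups alone (4.52%), 36 with them on 11 libraries (50%), and 0 to 23 when each library was left out (8.48% to 33.3%), 0 to 5 apart from replicate 2 of TRB cells with T3. The members' median moved from 0.083 to -0.449 with GC offsets on 11 libraries, -0.405 with DESeq2 on 11, -0.400 with the compared groups alone on 11, and between -0.406 and 0.329 when each library was left out. For T3 in EV cells 0 became 1 with GC offsets (4.45%), 4 with them on 11 libraries (17.4%), 3 with DESeq2 on 11 (14.4%) and 0 to 2 when each library was left out (0.0674% to 7.33%). The median of -0.17 became -0.010 and -0.006 with the offsets, and ranged from -0.209 to -0.049, the last without replicate 3 of EV cells with T3, when each library was left out. For TRB in vehicle 0 became 1 with GC offsets on 11 libraries (0.972%) and 5 with the compared groups alone (11.2%), and the median of -0.041 became 0.10 and 0.099 with the offsets and ranged from -0.027 to 0.021 when each library was left out. For TRB with T3 1 became 3 with DESeq2 (13.2%), 0 without a filter (2.19%), 12 with GC offsets (28.4%), 35 with them on 11 libraries (41.3%), 12 with DESeq2 on 11 (20.6%), 0 and 2 with the compared groups alone on all (0.241%) and on 11 libraries (8.85%), and 0 to 7 when each library was left out (2.79% to 19.7%). Its median of 0.133 became -0.370 with GC offsets on 11 libraries and -0.327 with the compared groups alone on 11, and ranged from -0.267 to 0.34 when each library was left out, the lowest without replicate 2 of TRB cells with T3. For the difference of T3 effects 0 became 3 with DESeq2 (7.08%), 12 with GC offsets (19%), 34 with them on 11 libraries (34.1%), 12 with DESeq2 on 11 (18.1%) and 0 to 9 when each library was left out (0.918% to 15.2%), and the median of 0.185 became -0.326 with GC offsets, -0.433 with them on 11 libraries and -0.185 with DESeq2 on 11, and ranged from -0.177 to 0.354 when each library was left out. Deviations from the group means correlated over 0.1 in 12 of 18 same-numbered pairs of libraries and not in 6 (range -0.19 to 0.728). Of 12 libraries, 7 correlated best, among the other groups, with one of their own number. These mixed values do not decide whether the numbers pair the libraries. The main fits did not take the numbers as pairs, and a replicate block was fitted as an alternative. The replicate block gave 6 for T3 in TRB cells with 12 libraries (15.8%). On 11 it gave 22 (35.2%), with a median of -0.351, and 4 (13.3%), 7 (21.7%) and 11 (22.1%) for T3 in EV cells, TRB with T3 and the difference. AURKB for T3 in TRB cells turned from -0.075 to 0.094 with GC offsets, 0.329 with them on 11 libraries, 0.395 with the block on 11, 0.458 with DESeq2 on 11, 0.455 with the compared groups alone on 11, 0.012 without replicate 1 of TRB cells with vehicle and 0.455 without replicate 2 with T3, in a range of -0.406 to 0.455. MAD2L1 turned from 0.212 to -0.00047 with the block, -0.479 with GC offsets, -0.732 with them on 11, -0.575 with the block on 11, -0.681 with DESeq2 on 11, -0.685 with the compared groups alone on 11, and ranged from -0.688 to 0.522 when each library was left out. BUB3 turned from -0.191 to 0.014 without replicate 1 of TRB cells with T3, in a range of -0.663 to 0.014. Alternatives on 11 libraries by DESeq2, the block and the compared groups alone were chosen after seeing the data; the causes of these shifts were not tested.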
